A study of Mus musculus with 15 samples.

Results

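The genes described here encode the nuclear share of the mitochondrial respiratory chain and of the ATP synthase. They were chosen by symbol alone, as the mouse protein-coding genes whose RefSeq symbol begins with Nduf (complex I and its assembly factors), Uqcr (complex III), Cox4, Cox5, Cox6, Cox7 or Cox8 (complex IV) or Atp5 (ATP synthase). Of 92 such symbols, 78 had at least 1 accessible region, among 16621 protein-coding genes with one. The 14 symbols to which no region was assigned were Atp5h, Atp5pb, Cox8c, Ndufa1, Ndufa2, Ndufaf3, Ndufaf5, Ndufb1, Ndufb11, Ndufb4b, Ndufb4c, Ndufb5, Ndufs8 and Uqcrh. For 7 of these (Atp5h, Ndufa1, Ndufaf3, Ndufaf5, Ndufb1, Ndufb11, Uqcrh) a region did cover the promoter, but its midpoint gave it to a neighbouring gene. The 78 genes comprised 33 of 41 complex I subunits, 6 of 8 complex I assembly factors, 7 of 8 genes of complex III, 17 of 18 of complex IV and 15 of 17 of the ATP synthase. Classes follow the symbol, so Ndufa4, a protein since placed in complex IV, is counted with complex I.

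The respiratory chain passes electrons from food to oxygen across the inner mitochondrial membrane and pumps protons, and the ATP synthase lets the protons back to make ATP. A few of its subunits are encoded by mitochondrial DNA and all others by the nucleus, so both genomes must supply parts. Hepatocytes are rich in mitochondria, and the promoters of many of the nuclear genes are known to hold sites for NRF1, for ETS factors such as GABP and for YY1.

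The measurements were ATAC-seq, in which a transposase cuts open chromatin, so every value is accessibility and not expression. Cells sorted from mouse liver gave 5 groups of 3 libraries. From untreated mice came hepatocytes and biliary cells, the cells that line the bile ducts. From mice given DDC, a compound that injures the bile ducts, came reprogrammed hepatocytes besides both of those types. The labels used here give no dose, duration, age, strain or sort gate. Separate animals are not named for the libraries of a group, so each p-value rests on the spread between libraries of a group, which may be technical. In the main test that spread was pooled for each gene over all 5 groups, whichever groups were compared. The standard error (SE) of a gene is therefore the same in every pairwise comparison. Noise in the untreated hepatocyte libraries, which had the fewest nuclear reads, thus enters comparisons without those libraries. In sorted cells taken in bulk, a lower value can mean less open chromatin per cell or fewer cells of a type, and these cannot be told apart.

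Accessibility is given as nuclear RPM, the reads in a gene's regions per 1e6 reads in all nuclear regions of the library. A region belonged to the gene whose body held its midpoint, or else to the nearest body within 50 kb. Nuclear reads per library ran from 201705 to 605309 in untreated hepatocytes, 1191409 to 2342643 in DDC hepatocytes, 2439831 to 4389653 in untreated biliary cells, 4756891 to 9829886 in DDC reprogrammed cells and 5151190 to 10395918 in DDC biliary cells. In untreated hepatocytes a single read was therefore worth 4.96, 1.65 and 4.26 nuclear RPM in libraries 1, 2 and 3, and the median member had 4, 18 and 6 reads. The hepatocyte markers (7 of 8 with a region) summed to 2176 to 3162 nuclear RPM in untreated hepatocytes, 1630 to 2152 in DDC hepatocytes and 230 to 678 in the other 3 groups. The biliary markers (7 of 7) summed to 249 to 421 in both hepatocyte groups, 787 to 896 in reprogrammed cells and 1079 to 1235 in both biliary groups, so the labelled types stood apart by their markers. Markers of other liver cells were present in every group. Over the libraries, macrophage markers (2 of 4 with a region, Adgre1 and Clec4f without) summed to 51.2 to 148 nuclear RPM, endothelial markers (4 of 4) to 56.5 to 155, led by Stab2 or Pecam1, and stellate markers (4 of 4) to 68.1 to 155, led by Reln except in DDC biliary cells. Lymphocyte markers (3 of 4, Cd79a without a region) summed to 44.6 to 69.4 in untreated hepatocytes, nearly all from Ptprc, 14.9 to 36.9 in DDC hepatocytes and 7.06 to 17 in the other groups, and Cd3e was at 0 in 3 libraries.

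Promoter sequences were available for 75 of the 92 symbols, as the 250 bases before and 50 after a RefSeq start in build GRCm38.p6 (mm10). Letters were searched on both strands. The NRF1 core GCATGCGC was found in 11 of the 75 members (14.7%) and in 3.93% of 17491 genes with a promoter given. The YY1 letters AAGATGGCG were found in 8 members (10.7%) against 2.14% of genes, and the ETS letters CCGGAAG in 17 (22.7%) against 12.9%. The SP letters GGGCGG were found in 33 members (44%) against 49.2%, TATAAA in 8 (10.7%) against 14.8%, and the ERR letters TCAAGGTCA in 1 member (Atp5g3, 1.33%) against 0.377%. The median promoter of a member held 57.5% G or C and 19.5 CpG, against 56.3% and 13 for all protein-coding genes. A match describes letters and does not show that a factor was bound.

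Promoters are printed because the accessibility results turn on the first pair, Ndufaf4 and Atp5g1, and because Atp5k and Cox6a1 share the NRF1 letters with Ndufaf4. Bases upstream of the start are shown 5′ to 3′ on the gene's strand, leaving out any base inside a protein-coding gene body, from RefSeq, GRCm38.p6. Ndufaf4 is read from chr4:24897883-24898082 (plus strand), Atp5g1 from chr11:96075695-96075831 (minus), Atp5k from chr5:108434400-108434599 (minus) and Cox6a1 from chr5:115348959-115349158 (minus). Capitals mark matches to the NRF1, ETS, YY1, SP, ERR and TATA letters. The capital run around the NRF1 core is a palindrome, so 2 overlapping matches, 1 per strand, make it up.
Ndufaf4: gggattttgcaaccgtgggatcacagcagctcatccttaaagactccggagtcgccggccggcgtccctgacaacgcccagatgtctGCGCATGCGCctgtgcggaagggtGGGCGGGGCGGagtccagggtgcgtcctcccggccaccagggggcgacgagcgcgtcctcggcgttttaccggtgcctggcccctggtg
Atp5g1: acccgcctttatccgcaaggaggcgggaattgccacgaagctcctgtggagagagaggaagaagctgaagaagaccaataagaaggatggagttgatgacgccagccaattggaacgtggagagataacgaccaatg
Atp5k: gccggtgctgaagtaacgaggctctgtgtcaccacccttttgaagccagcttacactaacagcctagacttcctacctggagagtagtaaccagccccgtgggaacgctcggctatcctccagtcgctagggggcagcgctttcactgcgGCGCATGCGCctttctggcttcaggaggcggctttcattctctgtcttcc
Cox6a1: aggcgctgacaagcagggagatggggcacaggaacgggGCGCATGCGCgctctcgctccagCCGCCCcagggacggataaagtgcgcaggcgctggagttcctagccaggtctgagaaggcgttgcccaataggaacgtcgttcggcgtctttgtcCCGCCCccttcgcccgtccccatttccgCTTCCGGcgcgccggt
The Atp5g1 stretch has no capitals, since none of the searched letters occur in these 137 bases. In Ndufaf4 the NRF1 letters are followed by SP letters. In Cox6a1 the NRF1 letters stand with SP and ETS letters.

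As a whole, the nuclear respiratory chain genes summed to nearly the same accessibility in all 5 groups, with group means within 1.12-fold. The share of mitochondrial reads changed 8.29-fold between group means, but these reads are left out of the nuclear RPM total. No other set of genes was summed beside them, so the steady sum is not shown to be particular to these genes. Between the untreated types, assembly factors and ATP synthase genes moved in opposite directions within it (below). The 78 genes summed to 2955 ± 237 nuclear RPM in untreated hepatocytes (mean ± SD, n = 3 here and for the next values), 2882 ± 62.2 in DDC hepatocytes and 2814 ± 248 in reprogrammed cells. Biliary cells gave 2650 ± 38 with DDC and 2905 ± 28.7 without. The single libraries ran from 2613 to 3223, a 1.23-fold span, and the groups overlapped except that all 3 DDC biliary libraries lay under those of DDC hepatocytes and of both untreated groups. Mitochondrial reads made up 63.1 to 84.2% of reads in regions in untreated hepatocytes, 29.1 to 42.4% in DDC hepatocytes, 13.7 to 21.9% in untreated biliary cells, 7.99 to 12.9% in DDC biliary cells and 4.69 to 14.8% in reprogrammed cells. These reads fell in 2 regions of mitochondrial DNA, bases 1 to 6581, which hold all of ND1 and ND2, and bases 10604 to 16299, which hold all of ND5, ND6 and CYTB.

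Set against each other, the reads of both genomes gave ratios over a wide range. A read on a nuclear respiratory chain gene was matched by 1328 mitochondrial reads in untreated hepatocytes, 183 in DDC hepatocytes, 79.8 in untreated biliary cells, 41.5 in DDC biliary cells and 38.2 in reprogrammed cells (group means), and single libraries spanned 121-fold. The number of mitochondrial reads itself ran only from 483301 to 1110915 per library, while the nuclear reads spanned the range given above. Whether the cells differed in mitochondrial DNA or the libraries in nuclear yield was not tested. On the deposited scale, whose total includes the mitochondrial reads, the same genes summed to 686 ± 328 in untreated hepatocytes and 2561 ± 357 in reprogrammed cells, and libraries spanned 6.74-fold.

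**Figure D1:**
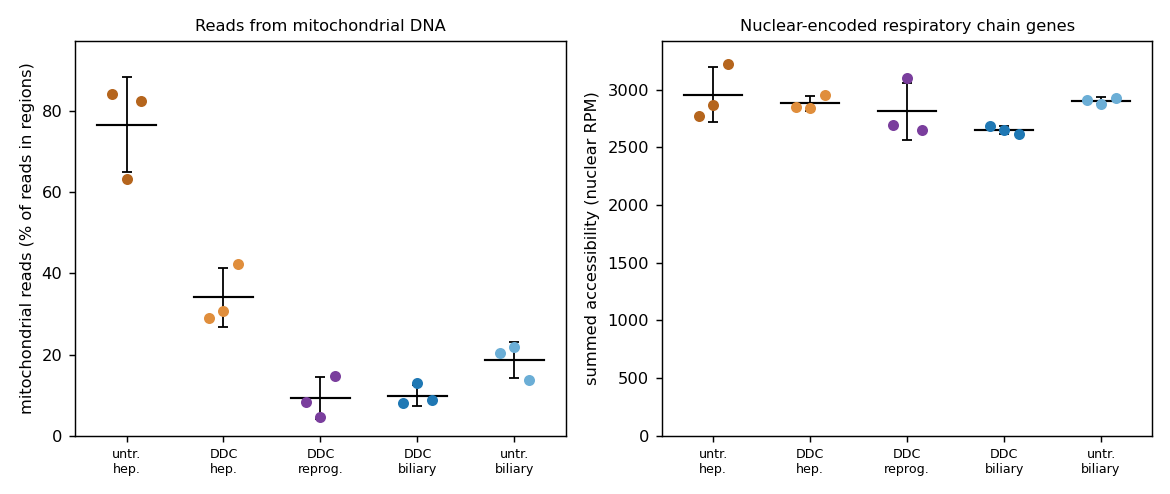
Left, mitochondrial reads as a percentage of all reads in regions; right, summed accessibility of the 78 nuclear-encoded respiratory chain genes in nuclear RPM, for each library (points) of the 5 groups (untr., untreated; hep., hepatocytes; reprog., reprogrammed hepatocytes) with mean and SD of 3. The mitochondrial share ran from 4.69 to 84.2% over the libraries, and the gene sum from 2613 to 3223.

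By class, the complex I assembly factors with an Ndufaf symbol were highest in untreated hepatocytes and the ATP synthase genes highest in untreated biliary cells. Other complex I assembly genes are given with the lists below. The 6 assembly factors summed to 645, 443 and 609 nuclear RPM in untreated hepatocyte libraries 1, 2 and 3. They summed to 368 to 408 in DDC hepatocytes, 351 ± 35.9 (SD, n = 3) in reprogrammed cells, 324 to 329 in DDC biliary cells and 322 to 357 in untreated biliary cells, and every one of these libraries lay under the lowest untreated hepatocyte library. The 15 ATP synthase genes summed to 699 to 766 in untreated hepatocytes, 782 to 784 in DDC hepatocytes, 748 to 895 in reprogrammed cells, 786 to 834 in DDC biliary cells and 923 to 956 in untreated biliary cells. Group means of complex I subunits lay between 866 and 1007, of complex III between 235 and 278, and of complex IV between 386 and 456. These sums were given no test, since the members were chosen as a list.

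**Figure D2:**
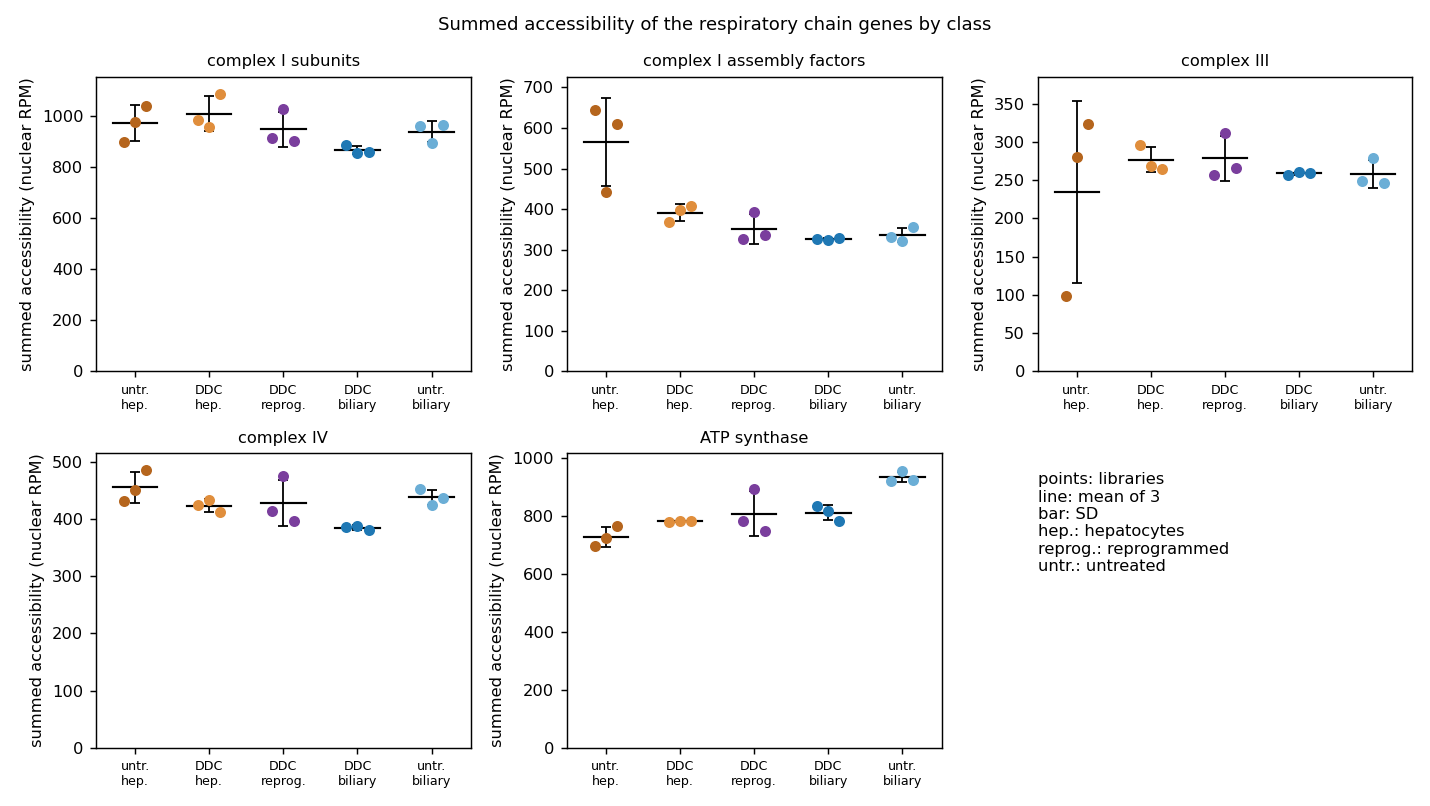
Summed accessibility in nuclear RPM of each class of respiratory chain genes in the 15 libraries, with mean (line) and SD (bar) of 3 libraries a group. The lowest assembly factor sum of untreated hepatocytes, 443, is above the highest of all other groups, 408.

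Most of the signal lay at promoters, and there the members varied little. Of the 154 regions of members, 52 covered the promoter window of their own gene and carried 68.7% of the members' signal. Among these 52, the ratio of group means between DDC biliary cells and DDC hepatocytes, as log2 of nuclear RPM + 1, had a median of -0.05 (quartiles -0.32 and 0.18), and 1 region (1.92%) differed over 2-fold, against 17.4% of 10369 such regions of all genes. Of 17 members' regions elsewhere within 1 kb of a gene end, 6 (35.3%) differed over 2-fold, against 33.5% of all such regions. Of 70 further away, 29 (41.4%) did, against 52.8%. The further regions were weaker, with a median level of 4.47 nuclear RPM against 30.7 at the promoters, and the part of counting noise in their wider ratios was not tested. Between reprogrammed cells and DDC hepatocytes, 1 of the 52 promoter regions differed over 2-fold, against 14.9% of such regions of all genes. Between DDC and untreated biliary cells 0 of 52 did, near the 3.74% of all genes. Between untreated biliary cells and untreated hepatocytes 9 of 52 (17.3%) did, against 30.7% of such regions of all genes. These are descriptions of group means, with no test.

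**Figure D3:**
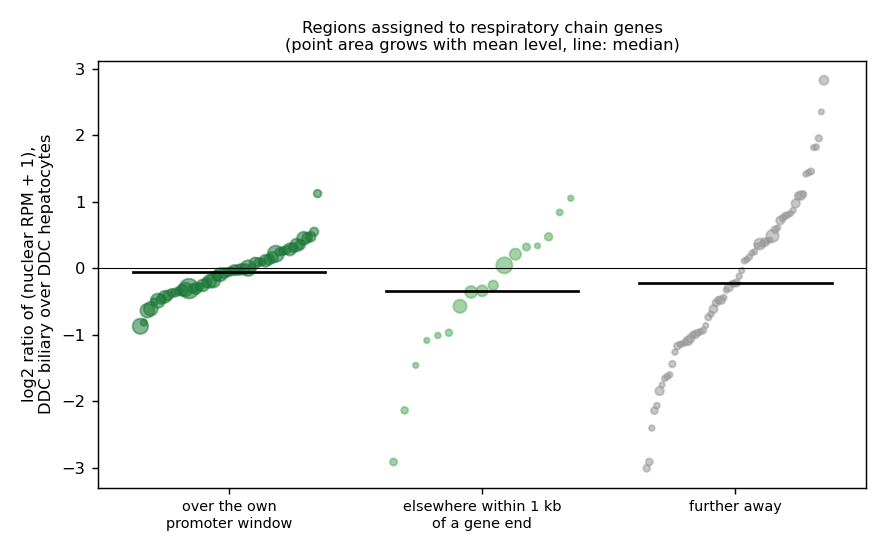
Log2 ratio of group means (nuclear RPM + 1), DDC biliary cells over DDC hepatocytes, for each region of a member with a mean of at least 1, by its place (52 over the own promoter window, 17 elsewhere within 1 kb of a gene end, 70 further away), point area growing with level. Promoter regions lie between -0.87 and 1.13 and the further ones between -3.01 and 2.83.

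Per kb of region, the highest member was Ndufv2, a core subunit of complex I, followed by Atp5j, Ndufb2 and Ndufa5. By summed value, not scaled for length, the highest means over the 5 groups were Atp5j with 139 nuclear RPM, Ndufaf6 with 130.2 over 10 regions, Atp5mpl with 108 over 6 regions, Uqcrq with 94.2 and Atp5g1 with 92.1. The lowest were Cox4i2 with 0.388, Cox6a2 with 0.866, Ndufa4 with 1.29, Ndufb9 with 1.44 and Ndufa11 with 1.93. Low sums need not mean closed promoters. For 7 of the 78 genes the region over the promoter was assigned to a neighbouring gene, for example that of Ndufa4 to Phf14, of Ndufa13 to Tssk6 and of Ndufa11 to Vmac. The promoter region of Atp5j was shared with Gabpa and that of Ndufaf2 with Ercc8, so their signal cannot be given to 1 gene. The group means of 40 of 74 members lay within 2-fold (54.1%), against 48% of genes, and by promoter regions 47 of 66 did (71.2%) against 56.4%.

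Untreated biliary cells were compared with untreated hepatocytes to ask how the cell types differ without injury. The change is in log2(nuclear RPM + 1) with its SE, and a call is an adjusted p under 0.05 in limma-trend with Benjamini-Hochberg adjustment over 16269 genes (n = 3 per group throughout). Of the 76 members that passed the filter on low values, 13 were called higher and 9 lower, 28.9% of members where 39.0% of all genes were called. The members' median change was 0.25, against 0.32 for all genes. The called members were 3 of 6 assembly factors (all lower), 7 of 15 ATP synthase genes (6 higher), 9 of 33 complex I subunits (6 higher), 3 of 15 complex IV genes (1 higher) and 0 of 7 complex III genes (7 not called, with changes from -1.02 to 1.68).

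Ndufaf4, an assembly factor of complex I, had 169, 129 and 238 nuclear RPM in untreated hepatocytes and 53.3, 70.9 and 62.6 in untreated biliary cells. The groups did not overlap, and 168 reads lay behind the hepatocyte values. It fell by 1.47 ± 0.22 (adjusted p = 0.000158), and the fall was also called by edgeR on reads (-1.55, adjusted p = 7.59e-06) and in the regions over its promoter alone (-1.51, adjusted p = 0.000155). Nearly all of the signal came from 1 region, chr4:24896151-24898814, which spans the promoter printed above.

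Ndufaf2 had 139, 85.9 and 115 nuclear RPM in untreated hepatocytes and 60.8, 58.2 and 63.3 in untreated biliary cells, a fall of 0.86 ± 0.19 (adjusted p = 0.00221). Ndufaf6 had 218, 157 and 158 against 113, 89.8 and 123, a fall of 0.70 ± 0.16 (adjusted p = 0.00284). Both are assembly factors, and neither overlapped between the groups. The Ndufaf6 value is a sum over 10 regions that reached up to 39899 bp outside the gene, and no promoter window was given for it. The other 3 assembly factors, Ndufaf1, Ndufaf7 and Ndufaf8, were not called. Hepatocyte marker sums were also high in the groups where the assembly factors were high (values above), and the lymphocyte gene Ptprc averaged 57.3 nuclear RPM in untreated hepatocytes and 9.11 in untreated biliary cells. The part of cell makeup in the assembly factor values was not tested.

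Atp5g1, 1 of 3 genes for the c subunit of the ATP synthase ring, moved the other way. It had 39.7, 51.2 and 42.6 nuclear RPM in untreated hepatocytes and 122, 128 and 116 in untreated biliary cells, with no overlap. It rose by 1.44 ± 0.18 (adjusted p = 5.06e-05; edgeR 1.29, adjusted p = 0.000233). Its single region, chr11:96073482-96076449, covers the promoter and most of the gene.

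The other c subunit genes went in both directions. Atp5g3 had 49.6, 56.2 and 102 nuclear RPM in untreated hepatocytes and 28.3, 38.5 and 31.7 in untreated biliary cells, a fall of 0.99 ± 0.28 (adjusted p = 0.0109) that was not called in its promoter region alone (-0.60, adjusted p = 0.173). Atp5g2, seen only in regions away from its promoter window, had 4.96, 3.30 and 0 against 15.1, 9.02 and 11.8 and rose by 2.11 ± 0.55 (adjusted p = 0.00706). All 3 genes encode the same mature protein, and their summed regions differ in place and length.

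Further ATP synthase genes called higher were Atp5j2 by 3.04 ± 0.64 (adjusted p = 0.00186), Atp5md by 2.23 ± 0.79 (0.0356), Atp5b, the catalytic β subunit, and Atp5mpl. Atp5j2 rested on 5 reads in untreated hepatocytes, all in library 2 (0, 8.26 and 0 against 18.9, 14.8 and 15.5 nuclear RPM). Among complex I subunits, Ndufv3 rose by 1.32 ± 0.34 (adjusted p = 0.00616), from 9.92, 26.4 and 25.5 to 48.7, 54.1 and 44.2. Ndufb4, Ndufab1 and Ndufv2 were called higher by 0.95, 0.72 and 0.62. Ndufa11 and Ndufa13 were called higher too, but neither had a read in any untreated hepatocyte library, and their levels pooled over the untreated biliary libraries (2.85 and 2.32 nuclear RPM) lay under the 2.88 that 0 reads allow in the pooled hepatocytes (3 reads over the group), so no fold is given.

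Some subunit genes were lower in biliary cells. Ndufs7, an iron-sulfur subunit of complex I, had 9.92, 13.2 and 25.5 nuclear RPM in untreated hepatocytes and 6.42, 4.92 and 1.37 in untreated biliary cells (-1.77 ± 0.48, adjusted p = 0.00905). Ndufs4 and Ndufc1 were called lower by smaller amounts. In complex IV, Cox7a2, the form found in most tissues, had 74.4, 74.3 and 76.6 against 40.8, 46.3 and 52.9 (-0.68 ± 0.19, adjusted p = 0.00911). Cox8b, the heart and muscle form, had 79.3, 44.6 and 17 against 18.9, 6.97 and 6.61 (-1.93 ± 0.48, adjusted p = 0.00563). Cox6c, another complex IV subunit, was called higher by 2.38 ± 0.91 (adjusted p = 0.0488), but it had 0, 29.7 and 0 nuclear RPM against 12.8, 19.3 and 14.6, and edgeR gave -0.090. Cox8b and Cox6c overlapped between the groups, and both regions of Cox8b lay 2657 and 6954 bp outside the gene.

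This comparison rests on shallow libraries. With only these 2 groups in the fit, 2 members stayed higher (Atp5g1, Ndufa11) and 3 lower (Ndufaf2, Ndufaf4, Ndufaf6), where 17.3% of all genes were called. edgeR called 4 higher and 10 lower, where 29.4% of genes were called. The deposited scale, on which the median of all genes was 1.91, called 64 higher and 0 lower, where 86.8% of genes were called. By promoter regions alone 8 were higher and 4 lower of 59 members tested, where 38.8% of all genes with such a region were called.

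DDC hepatocytes were compared with untreated hepatocytes to ask what injury does within the cell type. Here 4 members were called higher and 4 lower of 76 (10.5%), where 13.6% of all genes were called, and the median change was 0.32 against 0.21. Ndufaf4 fell by 1.11 ± 0.22 (adjusted p = 0.00551), with 61.5, 85.2 and 96.5 nuclear RPM in DDC hepatocytes, under every untreated hepatocyte library. Ndufaf6, summed over the same 10 regions as above, had 124, 102 and 125 and fell by 0.59 ± 0.16 (adjusted p = 0.0248). Cox7a2 had 40.1, 46 and 52.9 (-0.69 ± 0.19, adjusted p = 0.0244) and Atp5g3 had 32, 35.9 and 22.7 (-1.12 ± 0.28, adjusted p = 0.0173).

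Atp5g1 had 71.7, 93.9 and 94.8 nuclear RPM in DDC hepatocytes, above every untreated hepatocyte library, and rose by 0.95 ± 0.18 (adjusted p = 0.0049). Ndufb10, an accessory subunit of complex I, had 23.1, 19.2 and 24.3 against 4.96, 9.91 and 8.52 and rose by 1.44 ± 0.34 (adjusted p = 0.014). Atp5j2 was called higher by 2.96 ± 0.64 (adjusted p = 0.00885), from the same 5 reads as above. Ndufa13 had no read in untreated hepatocytes and 5.55, 6.7 and 3.36 in DDC hepatocytes, at least 1.91-fold higher.

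Both comparisons share the untreated hepatocyte libraries, so a value peculiar to those libraries enters both. None of these 8 calls stayed with only these 2 groups in the fit (0.00628% of genes called) or with reads thinned to equal depth (1.23% of genes called). With only these 2 groups, 4 members were higher and 5 lower at an unadjusted p under 0.05 in limma-trend. The share of all genes at that threshold was not counted, so these numbers show no excess. edgeR called 1 member higher (Atp5g1) and 2 lower (Ndufaf4, Atp5g3), where 4.91% of genes were called. The deposited scale, with a median of 1.54 over all genes, called 71 higher and 0 lower, where 84.7% of genes were called. By promoter regions alone 3 were called higher and 1 lower (Ndufaf4), where 11.9% of genes were called. Without untreated hepatocyte library 2 there were 19 calls, where 4536 of 16260 genes were called. Without library 3 there were 17 (3231 of 16269 genes), and without DDC hepatocyte library 1 there were 5 (823 of 16268 genes).

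**Figure D4:**
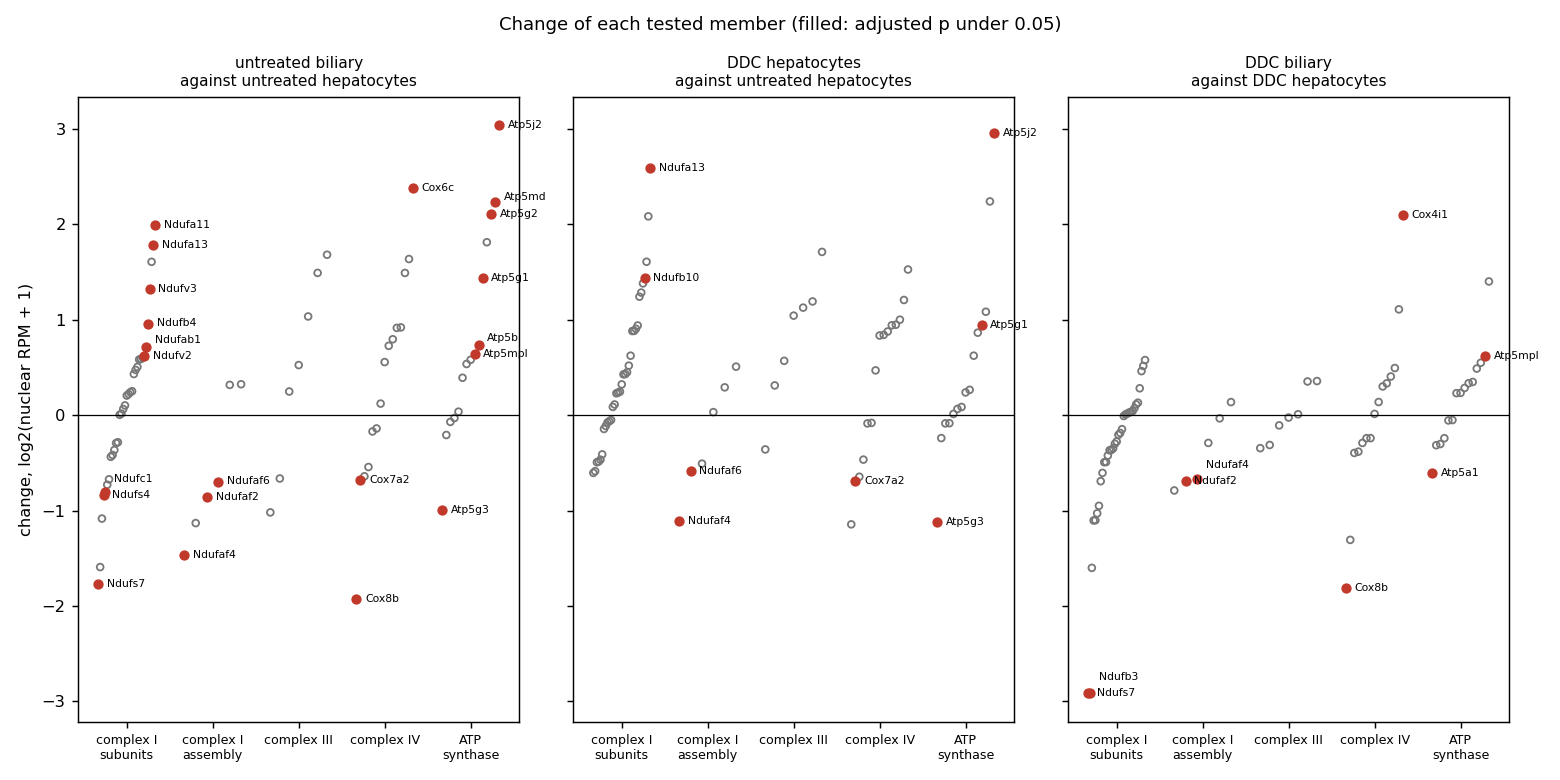
Change of each tested member in log2(nuclear RPM + 1), by class, in 3 comparisons; filled and named points have an adjusted p under 0.05 (limma-trend). The assembly factors called lie below 0 in each panel, while the called ATP synthase genes lie on both sides, from -0.99 to 3.04 in the left panel.

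In biliary cells, DDC left the respiratory chain genes without a call. With DDC against untreated biliary cells 0 of 76 members passed limma-trend, where 3.31% of all genes did. At an unadjusted p under 0.05, 1 was higher and 2 lower, and the share of all genes at that threshold was not counted. The median change was -0.10, against -0.01 for all genes. The largest change was that of Uqcr10, a small subunit of complex III, with 1.51, 0.82 and 1.82 nuclear RPM in untreated and 12.1, 13.8 and 12.9 in DDC biliary cells (2.57 ± 0.74, adjusted p = 0.0702). The values did not overlap, both regions lay outside the gene, and without untreated hepatocytes in the fit the adjusted p was 6.11e-05. The region over the Uqcr10 promoter, which was assigned to Zmat5, did not show that rise. Its group mean was 31.7 nuclear RPM in untreated and 24.8 in DDC biliary cells. edgeR called 1 higher and 1 lower, where 15.7% of genes were called. With only these 2 groups in the fit 3 were higher and 11 lower, where 27.7% of genes were called.

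Reprogrammed cells were compared with DDC hepatocytes, a separate group of libraries, so a difference is not a change followed within the same cells. Of 76 members 0 were called higher and 1 lower, where 14.3% of all genes were called, and the median change was 0.03 against 0.12. The 1 call was Ndufs7, with 18.8, 24.9 and 22.7 nuclear RPM in DDC hepatocytes and 3.18, 3.76 and 3.78 in reprogrammed cells (-2.33 ± 0.48, adjusted p = 0.00488; edgeR -2.70, adjusted p = 4.25e-05). The region of Ndufs7 covers the end of the gene, 2338 bp from Gamt, a creatine synthesis gene, and is not over its promoter window. Ndufaf4 had 50.7, 62.8 and 64.3 in reprogrammed cells (-0.43 ± 0.22, adjusted p = 0.228) and Atp5g1 had 101, 136 and 80.7 (0.27 ± 0.18, adjusted p = 0.396). Both overlapped with DDC hepatocytes. edgeR called 3 higher and 8 lower, where 30.1% of genes were called. A fit without untreated hepatocytes called 5 higher and 7 lower, where 35.1% of genes were called, among them Ndufs1 and Ndufs6 of complex I (lower) and Cox6b2 (higher). The deposited scale called 5 higher and 1 lower, where 24.8% of genes were called.

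Reprogrammed and biliary cells of DDC mice did not differ at any member by the test. Of 76 members 0 were called in limma-trend, where 0.0246% of all genes were. At an unadjusted p under 0.05 there were also 0, and the share of all genes at that threshold was not counted. edgeR called 1 higher, where 2.89% of genes were called. The median change was 0.11 against 0.05 for all genes, and changes ran from -0.84 to 1.49.

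DDC biliary cells and DDC hepatocytes differed at 8 members, 2 higher and 6 lower (10.5%), where 24.5% of all genes were called. The median change was -0.08, against 0.07 for all genes. On the deposited scale the balance turned to 5 higher and 3 lower, where 30.0% of genes were called, with medians of 0.36 and 0.50. Ndufs7 had 1.64, 1.94 and 2.64 nuclear RPM in DDC biliary cells (-2.92 ± 0.48, adjusted p = 0.00044). Ndufb3, an accessory subunit of complex I, had 13.7, 20.6 and 15.9 in DDC hepatocytes and 1.06, 1.94 and 1.07 in DDC biliary cells (-2.91 ± 0.95, adjusted p = 0.0342), from 1 region 19345 bp outside the gene. The region over its promoter, which has its midpoint in Fam126b, did not show that fall (0.40, adjusted p = 0.877).

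Cox8b had 39.7, 40.2 and 31.9 nuclear RPM in DDC hepatocytes, 18.2, 14.6 and 22.3 in reprogrammed cells and 11.1, 9.12 and 9.38 in DDC biliary cells, and fell by 1.81 ± 0.48 between the first and the last (adjusted p = 0.0118). Ndufaf2 had 68.3, 81.4 and 84.8 against 50.1, 44.3 and 49.6 (-0.69 ± 0.19, adjusted p = 0.0132), and Ndufaf4 had 53.7, 46.6 and 49.2 in DDC biliary cells (-0.67 ± 0.22, adjusted p = 0.0373). Neither assembly factor overlapped between the groups, and both were also lower by promoter regions alone, where they were the 2 members called of 59 and 10.7% of genes were called. Ndufaf6 did not follow (0.14 ± 0.16, adjusted p = 0.601).

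Atp5a1, the α subunit of the ATP synthase, fell by 0.61 ± 0.20 (adjusted p = 0.0347). Atp5mpl rose by 0.62 ± 0.21 (adjusted p = 0.0443), but in regions within 10 kb of the gene the change was -0.43. Cox4i1, the common form of a core-binding subunit of complex IV, was called higher by 2.10 ± 0.73 (adjusted p = 0.0476) from 0, 0 and 1.68 to 4.62, 3.88 and 6.74 nuclear RPM, all in 2 regions 4444 and 27857 bp outside the gene. Calls held without each library in turn only for Cox8b and Ndufs7, while Ndufb3 lost its call whichever library of the compared groups was left out. The count fell to 2 without DDC biliary library 2 (3045 of all genes called) and to 3 without library 1 or 3 (2630 and 2712). It fell to 4 without DDC hepatocyte library 2 (2908) and to 5 without library 3 (3400). With every library 3983 of 16269 genes were called. Without untreated hepatocytes in the fit 18 members were called, 6 higher and 12 lower, all 8 among them, where 43.5% of genes were called.

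**Figure D5:**
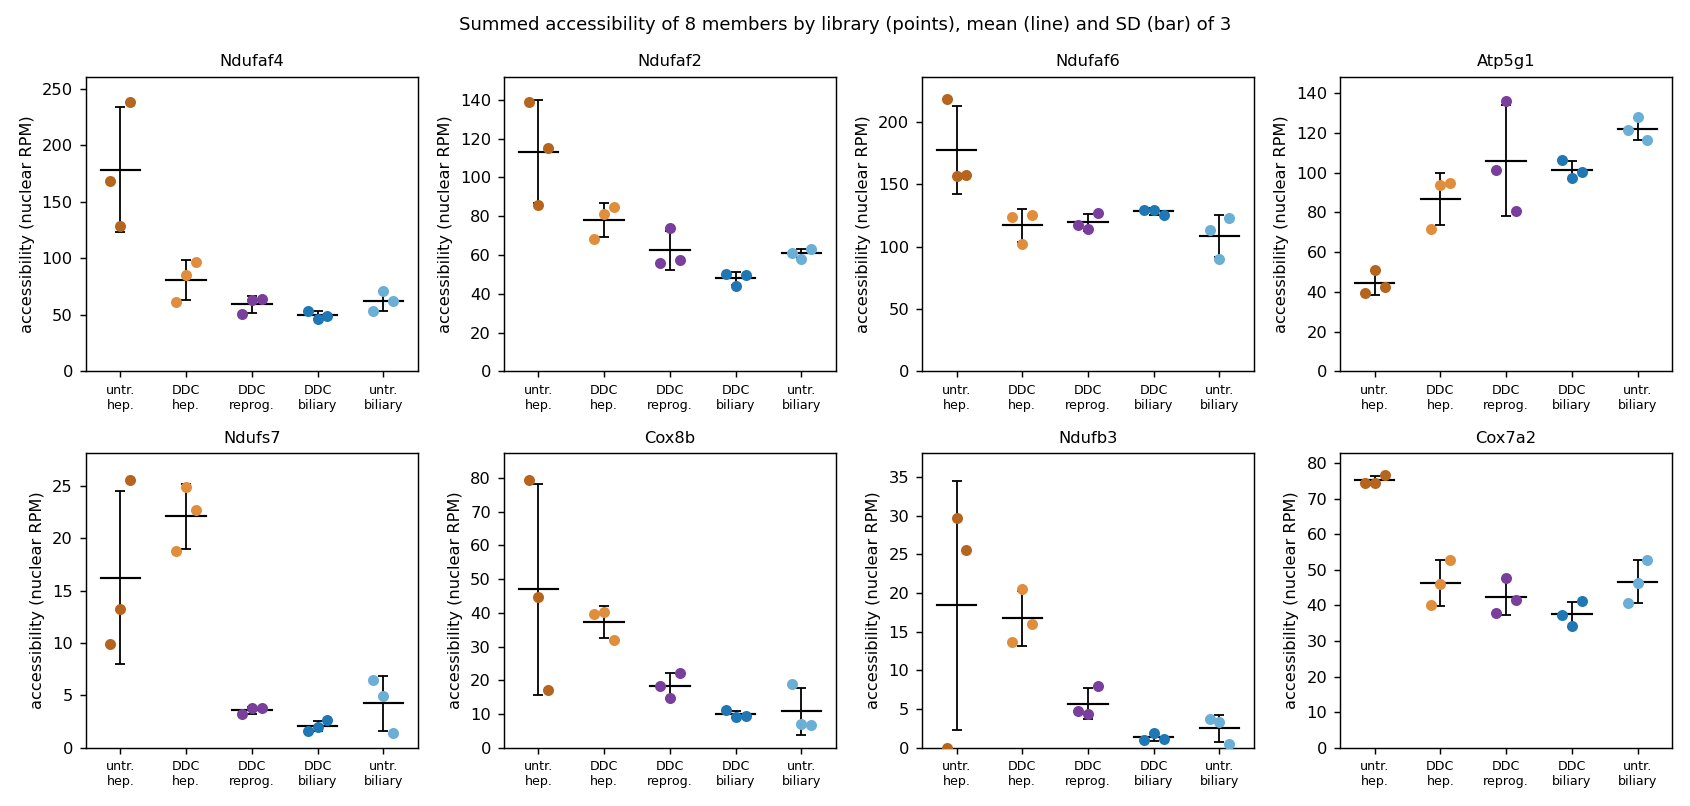
Accessibility in nuclear RPM of 8 members in each library (points), with mean (line) and SD (bar) of 3. Ndufaf4 and Ndufaf2 are highest in untreated hepatocytes, Atp5g1 is lowest there, and Ndufs7, Cox8b and Ndufb3 are low in reprogrammed and biliary cells.

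The difference between the DDC effect in biliary cells and that in hepatocytes was tested by an interaction term. It was called at 0 members in the higher and 2 in the lower direction, where 2.77% of all genes were called, and the median was -0.43 against -0.21 for all genes. edgeR called 1 higher and 1 lower (3.19% of genes), and the deposited scale 1 higher and 50 lower (63.4% of genes). Atp5g1 changed by -0.27 ± 0.18 with DDC in biliary cells and by 0.95 ± 0.18 in hepatocytes, a difference of -1.21 ± 0.26 (adjusted p = 0.023). Ndufa13, without a read in untreated hepatocytes, was the other (-2.89 ± 0.59, adjusted p = 0.0188). Without DDC biliary library 1 or 3 or untreated biliary library 2 the count was 0, where 86, 96 and 128 of all genes were called. Without DDC biliary library 2, DDC hepatocyte library 2 or untreated biliary library 3 it was 1 (200, 235 and 153 of all genes). Atp5g1 lost its call in each of these fits, and Ndufa13 in those with a count of 0. Without untreated hepatocyte library 2 or 3 the count was 6 or 4 (2221 and 1256 of all genes).

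Isoform pairs of complex IV differ by tissue, and liver is known for the common forms. Per kb of region, Cox8a averaged 37.6 nuclear RPM over the groups and Cox8b 5.41, Cox6a1 13.9 and the muscle form Cox6a2 2.89, Cox6b1 16.3 and the testis form Cox6b2 7.14, Cox7a2 30.5 and the muscle form Cox7a1 6.32, and Cox7b 8.3 and Cox7b2 4.96. These values do not compare like places. Cox8a, Cox6a1 and Cox7b were measured over their promoter windows. The regions of Cox8b (2657 and 6954 bp) and Cox6a2 (1978 bp) lay outside the gene, and that of Cox7b2 was not over its promoter window. A preference for an isoform can therefore not be read from these 3 pairs. Cox4i1 (3.5) and Cox4i2 (1.52) were both low. No promoter window was given for either, and the regions of Cox4i1 lay outside the gene, while Cox8c had no region. Cox6b2 had 7.68, 7.66 and 7.55 nuclear RPM in DDC hepatocytes, 19.6, 15.1 and 20.8 in reprogrammed cells and 15.9, 15.7 and 21.9 in DDC biliary cells. Neither difference from DDC hepatocytes was called (adjusted p = 0.281 and 0.263), although the groups did not overlap. Of the 4 tissue-restricted isoforms tested, only Cox8b was called in any comparison.

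Among all genes, 39.0% were called between the untreated types alone, and a share called at least once was not counted. Over all 7 comparisons 26 members were called at least once and 50 never. Without that share for all genes, these counts cannot be read as a result about the members. Of the 41 calls, 3 held in every alternative that kept the nuclear scaling (leaving out libraries aside): Ndufaf4 and Atp5g1 between the untreated cell types, and Ndufaf4 between DDC biliary cells and DDC hepatocytes. The last was called in 1 of 6 fits that each left out a library.

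Other genes of the same pathway were followed as lists, whose counts read against the shares of all genes called: 39.0% between the untreated types, 13.6% with DDC in hepatocytes, 14.3% in reprogrammed cells and 24.5% in biliary cells against DDC hepatocytes. Of 5 tested complex I assembly genes without an Nduf symbol, 0 were called between the untreated types. Their median change was 0.10, against -0.78 for the 6 Ndufaf genes, so the fall was not seen in complex I assembly genes at large. Complex II, which feeds electrons from succinate, had 1 of 8 genes higher between the untreated cell types and 1 lower (Sdhb, -0.48 ± 0.16) between DDC biliary cells and DDC hepatocytes. Of 18 tested genes of cytochrome c and of complex III and IV assembly, 3 were higher and 2 lower between the untreated types, 4 and 2 with DDC in hepatocytes and 0 and 2 between DDC biliary cells and hepatocytes. Lrpprc, which stabilises mitochondrial messenger RNA, was lower in all 3, with changes of -1.31 ± 0.18 (adjusted p = 7.33e-05), -0.58 ± 0.18 (0.0396) and -0.89 ± 0.18 (0.0017). Of 4 assembly factors and inhibitors of the ATP synthase 2 were higher between the untreated types, 1 with DDC in hepatocytes (Atpaf2 in both, by 1.53 and 1.26) and 1 in reprogrammed cells against DDC hepatocytes (Tmem70, 0.88).

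Of 17 regulators of respiratory genes 3 were higher and 4 lower between the untreated types, near the 39.0% of all genes, and 1 higher and 5 lower both in reprogrammed and in biliary cells against DDC hepatocytes. Nrf1, the factor whose letters were searched above, had 80.3, 49.8 and 97.4 nuclear RPM in DDC hepatocytes and 162, 149 and 159 in DDC biliary cells (1.09 ± 0.21, adjusted p = 0.00117). Ppargc1b, a coactivator of these factors, fell by 1.68 ± 0.23 there (adjusted p = 0.000121), and Ppargc1a by 0.47 ± 0.15 (0.0341). Of 19 genes of mitochondrial DNA upkeep and transcription, 2 were higher and 4 lower between the untreated types, 3 and 0 with DDC in hepatocytes and 0 and 1 (Polg, the DNA polymerase, -0.69 ± 0.18) between DDC biliary cells and hepatocytes. Mterf2, a mitochondrial transcription factor, rose by 2.22 ± 0.25 between the untreated types and by 1.62 ± 0.25 with DDC in hepatocytes.

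The citric acid cycle had 1 of 18 genes higher and 4 lower between the untreated types, 0 and 3 in reprogrammed cells and 0 and 6 in biliary cells against DDC hepatocytes, where 39.0, 14.3 and 24.5% of all genes were called. Suclg2 of succinyl-CoA ligase was lower in all 3, with changes of -1.15, -1.14 and -1.28. Of 11 genes of mitophagy and mitochondrial shape 3 were higher and 2 lower between the untreated types and 0 and 2 (Opa1, Mfn1, both for fusion) between DDC biliary cells and hepatocytes. The hepatocyte markers fell in 7 of 7 genes in these same 3 comparisons, and their part in the pathway genes was not tested.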

How the data were processed

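ATAC-seq of sorted mouse liver cells was analysed in 15 libraries. The tools listed in the submitters' processing notes are Bowtie2, SAMtools, MACS2 and bedtools, with build mm10 and no settings. The deposited values, called TPM by the authors, are RPM: 1e6 times the share of a library's counted reads, over 93217 regions of which 2 are mitochondrial, with no division by length. Whole reads could be recovered, since 100% of values worth at most 100 reads were whole within 0.02. In DDC reprogrammed library 1 a read is worth nearly a round decimal, which makes this check weaker for that library.

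Mitochondrial regions were removed, columns were rescaled, and 80377 regions were summed over 16621 RefSeq genes (midpoint in the body, the shortest if several, or nearest within 50 kb). The test was limma-trend (limma 3.58.1, R 4.3.3) on log2(nuclear RPM + 1) over all 15 libraries. The residual variance of a gene was shared by all groups. Genes with a mean of at least 1 were kept, and p-values were adjusted by Benjamini-Hochberg. Adding 1 understates changes at low values. Alternatives were edgeR 4.0.16 on recovered reads, other filters, distances, weights and scalings, reads thinned to 201705 per library and leaving out libraries. The alternatives with promoter regions only and without untreated hepatocytes in the fit were chosen after seeing the data. The procedure was tested on simulated data. Named members were those called (at most 10 per comparison), the highest and lowest and the complex IV isoforms, and called genes of other lists. Promoters to print, Uqcr10, further called members beyond those 10, members called only in an alternative and the uncalled values of called members were chosen after values were seen. The members and lists were chosen with earlier results of these data known.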

Additional observations from a re-analysis of the deposited data

Results flagged for a closer look

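In 2 members the effect of DDC differed between biliary cells and hepatocytes by an interaction term in limma-trend (adjusted p under 0.05, n = 3 per group). For Atp5g1 the difference was -1.21 ± 0.26 in log2(nuclear RPM + 1) (adjusted p = 0.023). With edgeR it was -1.09 (adjusted p = 0.045). All 3 of 3 DDC hepatocyte libraries lay above and 3 of 3 DDC biliary libraries below their untreated counterparts. The Atp5g1 call was lost without any 1 DDC biliary library, without DDC hepatocyte library 2 and without untreated biliary library 2 or 3. For Ndufa13 the difference was -2.89 ± 0.59 (adjusted p = 0.0188), and its call was lost without DDC biliary library 1 or 3 or untreated biliary library 2. Neither was called with array weights or thinned reads. No untreated hepatocyte library held a read of Ndufa13, edgeR did not call it (adjusted p = 0.131), and in promoter regions alone the difference was -0.74 (adjusted p = 0.529).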

How the results depend on the processing

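Counts of members called changed with the setting, and so did those of all genes. Genes tested were 10996 in promoter regions, 12877 within 1 kb of ends and 15917 to 16269 otherwise. Between the untreated types 22 calls became 4 with array weights, 5 with only the compared groups and 64 on the deposited scale. They became 14 with edgeR, 5 with thinned reads, 12 in promoter regions and 13 within 1 kb of gene ends. Over all genes 6342 calls became 2681, 2776, 13923, 4791, 2466, 4266 and 4855. For DDC in hepatocytes 8 became 0, 0, 71, 3, 0 and 4 in the first 6 of these settings. All-gene calls there went from 2207 to 97, 1, 13590, 798, 199 and 1306. For DDC in biliary cells 0 became 15 with array weights, 14 with the compared groups, 1 on the deposited scale and 2 with edgeR. It became 1 with 5 added, 1 within 1 kb of ends and 3 without untreated hepatocytes. The 538 calls over all genes became 4449, 4475, 495, 2561, 742, 79 and 2736. Reprogrammed cells against DDC hepatocytes gave 1 call, and 9, 9, 6 and 11 with array weights, compared groups, deposited scale and edgeR. They gave 0 in promoter regions and 12 without untreated hepatocytes. For all genes 2320 calls became 4439, 4395, 3971, 4897, 564 and 5702. Against DDC biliary cells reprogrammed cells gave 0, and 2, 2 and 1 with array weights, compared groups and edgeR. Among all genes 4 calls became 1139, 1168 and 470. DDC biliary cells against DDC hepatocytes gave 8, and 15, 19, 16 and 3 with array weights, compared groups, edgeR and thinning. They gave 2, 3 and 18 with promoter regions, 1 kb ends and without untreated hepatocytes. Here the 3983 calls over all genes became 6627, 6497, 6372, 1758, 1180, 1668 and 7069. The interaction gave 2, and 0, 51, 0 and 1 with array weights, deposited scale, thinning and promoter regions. Its 450 calls over all genes became 65, 10166, 17 and 304. The cause was not tested.

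Leaving out 1 library at a time gave 16 to 33, 5 to 19, 0 to 0, 1 to 2, 0 to 0, 2 to 6 and 0 to 6 calls, with the comparisons in the same order. All genes then gave 4659 to 7428, 823 to 4536, 42 to 460, 1030 to 1833, 0 to 1, 2630 to 3400 and 86 to 2221. With the replicate number as a block the counts were 25, 8, 0, 1, 0, 7 and 3. The block gave 6467, 2313, 551, 2297, 3, 4043 and 457 calls over all genes. Whether the numbers pair the libraries is not resolved: in 0 comparisons was every same-number correlation over 0.1, but between groups of DDC mice 9 of 9 were positive (0.0279 to 0.197), 6 were over 0.1 and 8 were above the highest with another number. With a group of untreated mice they ran from -0.139 to 0.0694.

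Some members changed sign. On the deposited scale, with mitochondrial reads in the total, DDC hepatocytes against untreated gave Atp5g3 0.42, Cox7a2 0.85, Ndufaf4 0.47 and Ndufaf6 0.99. The untreated types gave Atp5g3 0.84, Cox7a2 1.16, Ndufaf2 1.01, Ndufaf4 0.41, Ndufaf6 1.18, Ndufc1 0.97 and Ndufs4 0.98. Atp5mpl became -0.26 and -0.33 within 1 kb of ends and -0.43 and -1.08 within 10 kb (DDC types, untreated types). Cox6c became -0.090 with edgeR, Ndufa11 0.00 with thinning (untreated types) and Ndufb3 0.40 in promoter regions (DDC types). Depth limits the untreated hepatocytes most, where 6 to 19 members had 0 reads.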
